A study of Mus musculus with 42 samples.

Results

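CD300, TREM and related paired receptors were followed through 9 genes of the mouse: the inhibitory receptors Cd300a, Cd300lf, Sirpa and Pirb, the activating receptors Cd300lb, Cd300ld, Trem1 and Trem2, and the adaptor Tyrobp. The members were the rows of the count table whose Ensembl identifier carries one of these symbols, which gave 9 of 37310 genes, and 9 of 9 passed the filter on low counts that left 11624 genes for testing. Expression was measured by RNA-seq in bone-marrow-derived macrophages (BMDM), macrophages grown in culture from bone marrow, with 42 libraries in 14 groups of 3. The mice carried floxed Irf5 and a Cre recombinase driven by the myeloid LysM promoter and are labelled KO, or were wild-type mice labelled WT. All were young adult males. Whether the WT mice carried the flox or the Cre allele is not given in the sources used here. Cells of each genotype were left as Control for 0, 2 or 24 h, or received palmitate, a saturated fatty acid, or LPS, a bacterial lipopolysaccharide, for 2 or 24 h. The comparisons ask how these receptors respond to a lipid and to a bacterial stimulus, and whether the response differs between genotypes.

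Paired receptors are families in which closely related activating and inhibitory members sit side by side on myeloid cells. Activating members have short tails and signal through an adaptor with an immunoreceptor tyrosine-based activation motif, such as DAP12, the product of Tyrobp, which recruits the kinase SYK. Inhibitory members carry immunoreceptor tyrosine-based inhibitory motifs in their own tails and recruit the phosphatases SHP-1 and SHP-2, the products of Ptpn6 and Ptpn11. In macrophages these families set thresholds for phagocytosis, cytokine release and the sensing of lipids and dying cells.

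Total counts per library lay between 2848793 and 7743442, so that 3 counts stood for 0.387 to 1.05 CPM, the count scaled to the library total. Macrophage markers were tested for 8 of 8 genes and summed to 9260 to 23000 CPM over the libraries. T and NK cell markers summed to 0 to 2.34 CPM. The mast cell list summed to 0.353 to 8.42 CPM, with Cma1, Tpsb2 and Mcpt4 at 0 in every library. The fibroblast list summed to 0 to 320 CPM, the granulocyte precursor list to 20.8 to 439 CPM and the osteoclast list to 32.6 to 148 CPM. Irf5, the targeted gene, was not lower in libraries labelled KO: it lay between 209 and 388 CPM in WT and between 267 and 430 CPM in KO, and was called higher in 4 and lower in 0 of 7 conditions. A gene-level count also takes reads from exons outside the floxed segment, whose position is not given in the sources used here, so this count alone does not check the labels. Lyz2, the gene that holds the Cre insertion, was called lower in 7 of 7 conditions, at 4680 to 8760 CPM in KO against 8020 to 14600 CPM in WT. The KO libraries spread most in Control at 0 h, at 5370 to 8760 CPM, against 10100 to 10200 CPM in WT. The genotype is therefore written throughout as the label of the library. Nothing in the labels says that the 3 libraries of a group came from separate mice or cultures, so p-values measure the spread between these libraries, which may be technical, and intervals on counts cover counting error only.

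The 4 CD300 genes lie together on chromosome 11 of GRCm38, and Trem1 and Trem2 lie together on chromosome 17. Cd300a is at chr11:114890041-114904654 on the plus strand, followed on the minus strand by Cd300lb at chr11:114922781-114934386, Cd300ld at chr11:114982274-114989922 and Cd300lf at chr11:115116214-115133992. Trem1 is at chr17:48232768-48246924 and Trem2 at chr17:48346401-48354147, both on the plus strand. Tyrobp is at chr7:30413760-30417585 on the plus strand, Pirb at chr7:3711409-3720391 on the minus strand and Sirpa at chr2:129592835-129632228 on the plus strand. The counts were made over genes, so exons, introns and UTRs are not separated. None of the 9 shares an exon with another gene, but the spans of Cd300lb, Cd300lf and Trem1 overlap a gene on the opposite strand, namely Gm11699, Rab37 and AC241601.2. Pirb has near-identical Pira neighbours, and the CD300 genes, Sirpa and the TREM genes have close relatives, so reads shared with those copies make their counts uncertain.

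Trem1, Cd300lf, Pirb, Trem2 and Cd300a, 5 members whose called responses ran in different directions or at different times, are shown by the 250 bases that precede their RefSeq start in GRCm38.p6, read 5′ to 3′ on the strand of the gene. Capitals mark the motif letters found: GAGGAA or its reverse complement (PU.1, a myeloid transcription factor), TTGCNNAA (C/EBP) and TGANTCA (AP-1). The windows are chr17:48232489-48232738 (plus) for Trem1, chr11:115133993-115134242 (minus) for Cd300lf, chr7:3720383-3720632 (minus) for Pirb, chr17:48346151-48346400 (plus) for Trem2 and chr11:114889791-114890040 (plus) for Cd300a.
Trem1: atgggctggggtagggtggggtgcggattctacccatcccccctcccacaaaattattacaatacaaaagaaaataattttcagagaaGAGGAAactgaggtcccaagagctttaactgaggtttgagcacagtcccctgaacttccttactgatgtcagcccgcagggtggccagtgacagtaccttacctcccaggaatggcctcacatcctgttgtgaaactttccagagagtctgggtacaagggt
Cd300lf: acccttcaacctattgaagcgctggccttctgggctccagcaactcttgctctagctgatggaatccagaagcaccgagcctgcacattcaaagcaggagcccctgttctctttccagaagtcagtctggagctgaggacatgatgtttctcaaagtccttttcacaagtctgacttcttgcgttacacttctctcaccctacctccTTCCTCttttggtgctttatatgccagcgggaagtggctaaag
Pirb: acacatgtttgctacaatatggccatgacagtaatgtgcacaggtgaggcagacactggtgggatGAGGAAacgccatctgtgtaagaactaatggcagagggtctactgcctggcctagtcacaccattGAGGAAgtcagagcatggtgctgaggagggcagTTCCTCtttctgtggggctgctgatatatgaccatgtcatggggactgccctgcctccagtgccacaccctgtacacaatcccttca
Trem2: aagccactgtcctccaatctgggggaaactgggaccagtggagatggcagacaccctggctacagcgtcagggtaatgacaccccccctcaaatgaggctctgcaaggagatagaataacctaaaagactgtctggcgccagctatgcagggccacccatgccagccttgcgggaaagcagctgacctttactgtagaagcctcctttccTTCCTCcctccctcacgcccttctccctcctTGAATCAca
Cd300a: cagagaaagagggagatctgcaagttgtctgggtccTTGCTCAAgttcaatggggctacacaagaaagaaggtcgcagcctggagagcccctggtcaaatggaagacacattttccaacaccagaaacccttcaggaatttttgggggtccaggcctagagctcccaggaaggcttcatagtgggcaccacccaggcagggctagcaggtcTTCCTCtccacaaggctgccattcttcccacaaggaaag
Of the 9 members, 7 had an entry in the RefSeq promoter table; Sirpa and Tyrobp had none. The PU.1 letters were found on either strand in 6 of these 7 windows, in Cd300lb in none, and in 3 places in Pirb, against 23.3% of all 32851 windows of the same kind. The AP-1 letters were found in Trem2 only among the 7 (6.75% of all windows) and the C/EBP letters in Cd300a only (9.56%). The interferon response letters, present in 2.98% of all windows, and the NF-kappaB letters, present in 0.356%, were in none of the 7. A match describes letters and is not a binding site, and a missing match says only that the letters are absent from this window.

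Tyrobp and Sirpa were the most abundant members per length of transcript. Over the 42 libraries the mean CPM per kilobase of exon was 510 for Tyrobp and 416 for Sirpa, the receptor for the "don't eat me" ligand CD47. Trem2, a receptor for lipids and apolipoproteins, stood at 59.7 and Pirb, an inhibitory receptor for MHC class I, at 49.4 CPM per kilobase. Cd300ld stood at 43.8, Cd300lb at 40.9 and Cd300a, which binds phosphatidylserine and phosphatidylethanolamine on dying cells, at 19.7 CPM per kilobase. Trem1, which amplifies inflammatory signalling, and Cd300lf, the receptor of mouse norovirus, were lowest at 1.11 and 0.695 CPM per kilobase. The order was the same when the longest transcript was used as the length.

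The order depended on the condition. In WT Control cells at 0 h the levels per kilobase were 570 ± 8.32 for Tyrobp and 475 ± 12.6 for Sirpa (SD, n = 3), followed by Trem2 at 70.6 ± 3.56, Cd300lb at 52.2 ± 2.39, Cd300ld at 45.5 ± 2.26, Pirb at 41.8 ± 0.47 and Cd300a at 24.1 ± 1.03 CPM per kilobase. In WT cells after 24 h of LPS, Pirb stood at 95.2 ± 4.77, Cd300ld at 43.2 ± 4.16, Trem2 at 26.8 ± 1.68 and Cd300lb at 26.2 ± 0.754 CPM per kilobase. Pirb then ranked above Cd300ld, Trem2 and Cd300lb, and the neighbours Trem2 and Cd300lb did not differ beyond their spread. As shares of the summed level per kilobase of the 9 genes, Tyrobp kept 43.2% to 47.3% and Sirpa 33% to 40% over the 14 groups, while Pirb made up 2.9% in WT and 3.14% in KO Control at 24 h and 9.4% and 8.4% after LPS for 24 h.

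**Figure D1:**
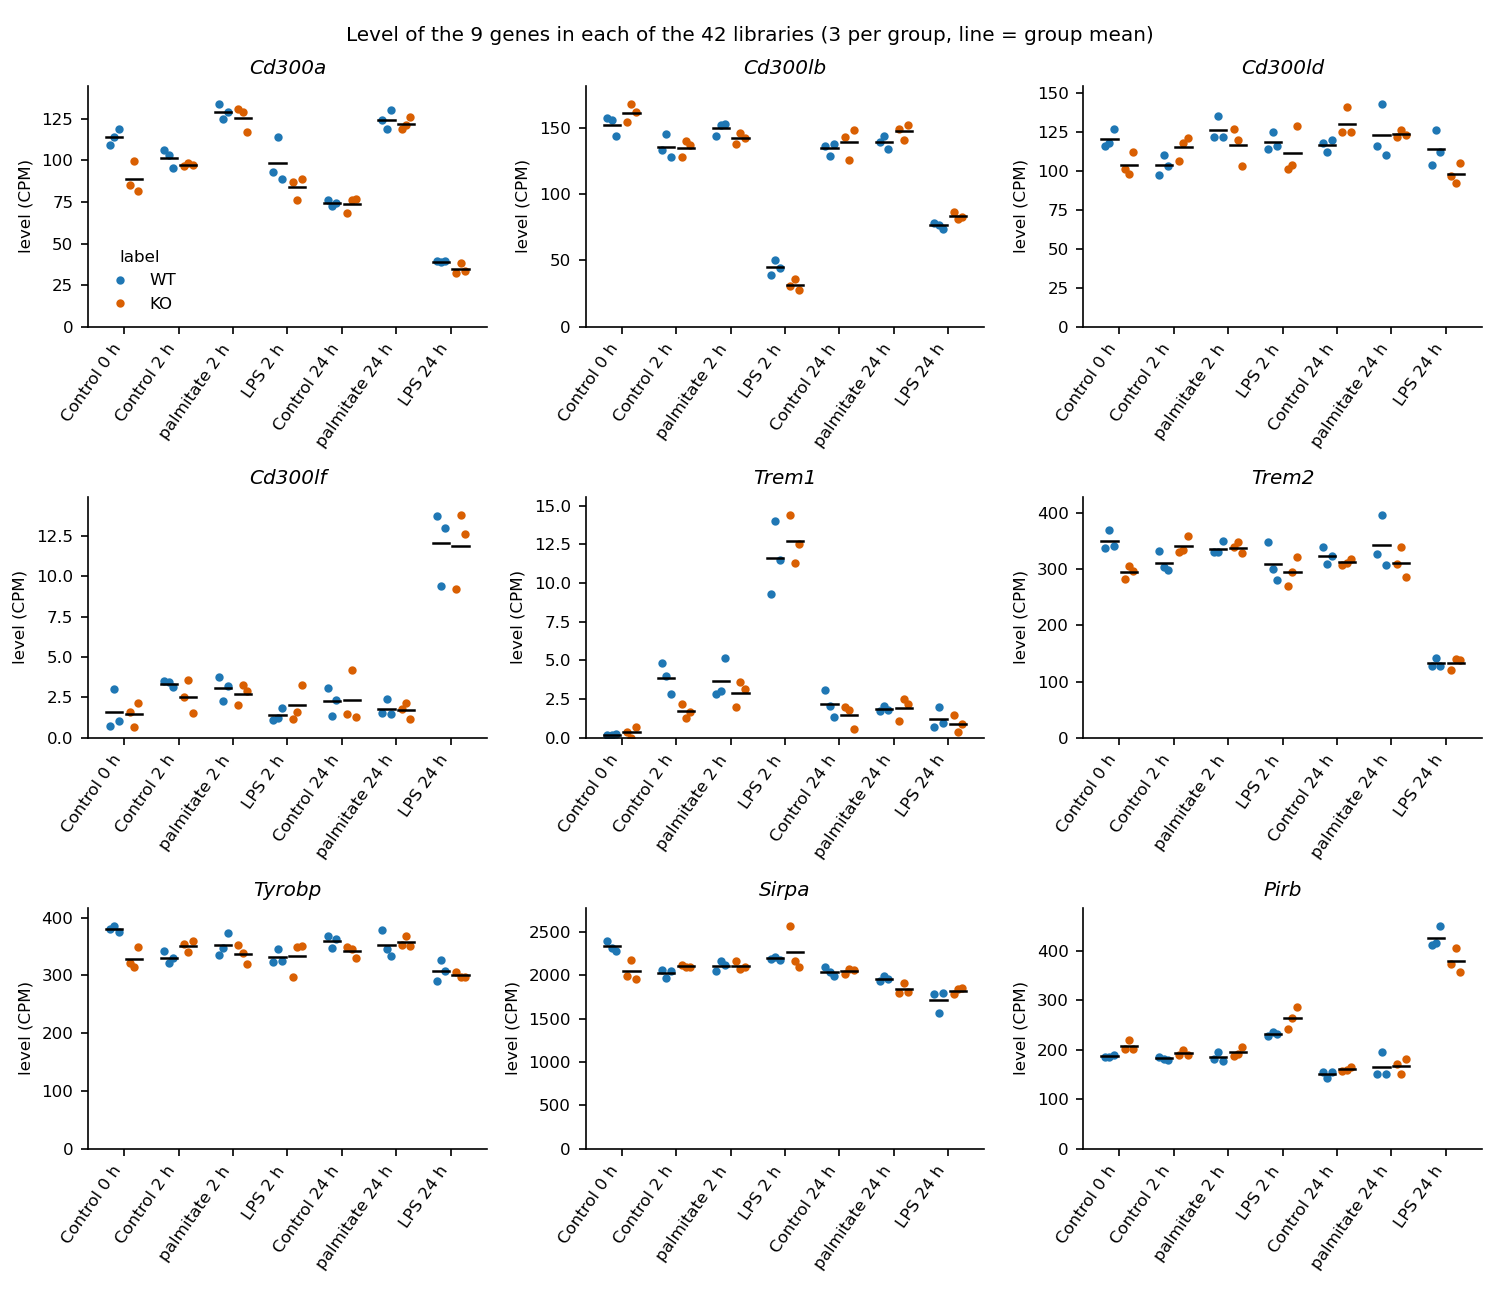
Level of each of the 9 genes in every library, in CPM on an axis that starts at 0, by condition on the horizontal axis, with libraries labelled WT in blue and KO in orange and a black line at the mean of 3 libraries. Pirb and Cd300lf are highest and Cd300a and Trem2 lowest in the LPS 24 h groups, and Trem1 is highest in the LPS 2 h groups.

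KO LPS 2 h library 1 stood apart, with the lowest total, 2848793 counts, and the widest differences from its replicates (chi-square per degree of freedom 9.32 and 7.76). After 2 h of LPS, Cd300lb fell, Trem1 rose and Pirb rose in both genotypes. Cd300lb, an activating DAP12-linked receptor, stood at 133, 145 and 128 CPM in WT Control cells and at 39.3, 50.3 and 44.3 CPM in WT LPS cells, and at 128, 140 and 137 against 30.3, 36 and 27.6 CPM in KO. The groups did not overlap in either genotype. It fell by 1.58 on the log2 scale in WT (SE 0.081, edgeR adjusted p = 2.36e-22) and by 2.10 in KO (SE 0.087, edgeR adjusted p = 3.42e-26), a 2.99-fold and a 4.29-fold drop. Without KO LPS library 1 the KO value was −2.10 (edgeR adjusted p = 2.37e-24). In bulk RNA, fewer cells of a type and less RNA per cell cannot be told apart.

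Trem1 was measured from few reads. Its counts were 25, 24 and 19 in WT Control cells and 26, 68 and 62 in WT LPS cells at 2 h, or 4.83, 3.97 and 2.81 against 9.29, 14 and 11.5 CPM, and in KO 2.17, 1.25 and 1.69 against 14.4, 11.3 and 12.5 CPM. The LPS libraries lay above the Control libraries in both genotypes. The pooled counts gave a ratio of 2.82 in WT (95% interval 2.11 to 3.8) and of 6.45 in KO (4.31 to 9.96). The log2 change was 1.61 in WT (SE 0.361, edgeR adjusted p = 0.000497) and 2.88 in KO (SE 0.402, edgeR adjusted p = 7.45e-08), or 2.78 without KO LPS library 1.

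Pirb moved from 185, 182 and 180 to 227, 235 and 232 CPM in WT and from 189, 200 and 190 to 241, 264 and 286 CPM in KO, without overlap, a log2 change of 0.35 (SE 0.074, edgeR adjusted p = 0.000245) and 0.46 (SE 0.074, edgeR adjusted p = 1.84e-06), or 0.50 without KO LPS library 1. Trem2 in KO passed the threshold narrowly, at −0.20 (SE 0.077, edgeR adjusted p = 0.0485), and was not called when any of 4 libraries was left out: −0.23 without KO Control library 2, −0.18 without KO Control library 3, −0.16 without KO LPS library 1 and −0.20 without KO LPS library 2. With only the libraries compared in the fit it was also not called (−0.21). Cd300a in KO missed the threshold (adjusted p = 0.0542 by edgeR) and passed it with DESeq2 (−0.22, adjusted p = 0.042) and with RLE size factors (−0.22, edgeR adjusted p = 0.0493), which both called 5 of 9, and at −0.25 without KO LPS library 1 and −0.28 without KO LPS library 3. Cd300lf in WT read 3.48, 3.47 and 3.11 CPM in Control and 1.07, 1.23 and 1.85 CPM in LPS, all lower, without passing (edgeR adjusted p = 0.0626). In all, 3 of 9 members were called in WT, against 23.1% of all genes tested, and 4 of 9 in KO, against 23.9%.

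After 24 h of LPS the inhibitory receptors split: Pirb and Cd300lf rose, and Cd300a and Sirpa fell. Pirb read 155, 142 and 155 CPM in WT Control cells and 411, 416 and 450 CPM in WT LPS cells, and 157, 159 and 165 against 373, 406 and 357 CPM in KO. No LPS library came near a Control library. Pirb rose 2.83-fold in WT (SE 0.074 on the log2 scale, edgeR adjusted p = 3.45e-23) and 2.35-fold in KO (SE 0.073, edgeR adjusted p = 5.29e-20).

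Cd300lf stood at 3.08, 1.37 and 2.33 CPM in WT Control cells, from 11, 8 and 16 counts, and at 13.7, 9.42 and 13 CPM in WT LPS cells, from 80, 57 and 85 counts. In KO it stood at 1.49, 4.19 and 1.27 CPM against 9.23, 13.8 and 12.6 CPM. The groups did not overlap in either genotype. The pooled counts gave a ratio of 5.38 in WT (95% interval 3.75 to 7.91) and of 4.88 in KO (3.45 to 7.08), and the log2 change was 2.45 (SE 0.385, edgeR adjusted p = 5.83e-07) and 2.35 (SE 0.379, edgeR adjusted p = 1.05e-06).

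Cd300a went the other way, from 76, 72.4 and 74.4 CPM in WT Control to 39.3, 38.7 and 39.5 CPM in WT LPS cells, and in KO from 68.2, 76.3 and 76.5 to 32.3, 38.2 and 33.3 CPM. Every LPS library was below every Control library. It fell 1.89-fold in WT (log2 change −0.92, SE 0.089, edgeR adjusted p = 1.77e-12) and 2.14-fold in KO (log2 change −1.10, SE 0.09, edgeR adjusted p = 6.65e-15). Within a library, the ratio of Pirb to Cd300a per kilobase averaged 2.15 in WT Control and 11.5 in WT LPS cells, and 2.31 and 11.6 in KO. Sirpa fell by less: 2090, 2040 and 1990 CPM in WT Control against 1780, 1570 and 1790 CPM in WT LPS cells, a log2 change of −0.25 (SE 0.055, edgeR adjusted p = 0.000196), and −0.17 in KO (SE 0.055, edgeR adjusted p = 0.0104). In KO the Sirpa call was lost without KO LPS library 1 (−0.15, edgeR adjusted p = 0.0528).

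Among the activating receptors, Trem2 and Cd300lb fell in both genotypes at 24 h. Trem2 read 340, 309 and 324 CPM in WT Control and 128, 142 and 127 CPM in WT LPS cells, and in KO 308, 312 and 318 against 121, 140 and 139 CPM. The LPS values lay far under the Control values in both. The drop was 2.45-fold in WT (log2 change −1.29, SE 0.08, edgeR adjusted p = 2.77e-19) and 2.35-fold in KO (log2 change −1.23, SE 0.08, edgeR adjusted p = 1.39e-18).

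Cd300lb stood at 136, 129 and 138 CPM in WT Control against 78.3, 77 and 74 CPM in WT LPS cells, and at 143, 126 and 148 against 86.1, 81.1 and 82.5 CPM in KO. It fell 1.75-fold in WT (SE 0.074 on the log2 scale, edgeR adjusted p = 2.28e-13) and 1.67-fold in KO (SE 0.073, edgeR adjusted p = 2.47e-12). Cd300ld, the activating neighbour of Cd300lb on chromosome 11, read 118, 112 and 120 against 104, 126 and 112 CPM in WT, which overlap, and was not called. In KO it read 125, 141 and 125 against 96.8, 92.5 and 105 CPM, which do not overlap, and fell 1.33-fold (log2 change −0.41, SE 0.089, edgeR adjusted p = 0.000164). The difference between genotypes in this effect, −0.38 on the log2 scale, was not called (edgeR adjusted p = 0.925).

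Tyrobp, the shared adaptor, changed by less than Trem2 or Cd300lb. It stood at 368, 347 and 363 CPM in WT Control and 290, 327 and 307 CPM in WT LPS cells, and at 350, 345 and 330 against 306, 297 and 298 CPM in KO. It fell by 0.22 on the log2 scale in WT (SE 0.06, edgeR adjusted p = 0.00238) and by 0.19 in KO (SE 0.06, edgeR adjusted p = 0.011), where the call was lost without KO Control library 1 (−0.17, edgeR adjusted p = 0.0511). Trem1 was no longer higher than Control: 3.08, 2.05 and 1.31 against 0.684, 1.98 and 0.917 CPM in WT, not called (edgeR adjusted p = 0.236). In all, 7 of 9 members were called in WT, against 39.5% of all genes tested, and 8 of 9 in KO, against 40.9%. The median size of the log2 change was 0.811 over the members in WT against 0.311 over all genes tested, and 0.741 against 0.323 in KO.

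Markers of other cell types were followed beside these values. The granulocyte precursor list summed to 346 to 439 CPM in WT and 331 to 401 CPM in KO after 24 h of LPS, against 62.4 to 69.4 and 147 to 231 CPM in Control. Lcn2 made up most of it, at a mean of 347 CPM in WT and 310 CPM in KO, against 5.87 and 17.2 CPM in Control, and the granule gene Ngp was lower in LPS, at 5.75 and 10.9 against 13.8 and 38.9 CPM. Ly6g was at 0 in every library with LPS for 24 h. The osteoclast list summed to 122 to 148 CPM in WT and 139 to 147 CPM in KO against 33.3 to 40.6 and 46.5 to 49.3 CPM, mainly through Acp5, with Oscar at 0. Their part in the result was not tested.

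The LPS effect differed between 2 and 24 h in 9 of 9 members when tested over both genotypes, against 46.3% of all genes. The LPS effect on Cd300lb was 1.06 higher on the log2 scale at 24 h than at 2 h, and the Trem1 effect at 24 h was 2.88 lower than at 2 h. The effect on Cd300lf was 3.13 higher and that on Pirb 0.96 higher at 24 h, and that on Trem2 was 1.15 lower and on Cd300a 0.88 lower. Tyrobp passed most narrowly, at −0.17 (edgeR adjusted p = 0.0189), and was not called with all genes with a count in the fit (−0.16, edgeR adjusted p = 0.0821), at −0.15 without KO Control 2 h library 2, KO Control 24 h library 1 or WT Control 24 h library 1, or at −0.14 without KO LPS 2 h library 3, WT LPS 2 h library 2 or WT LPS 24 h library 1.

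**Figure D2:**
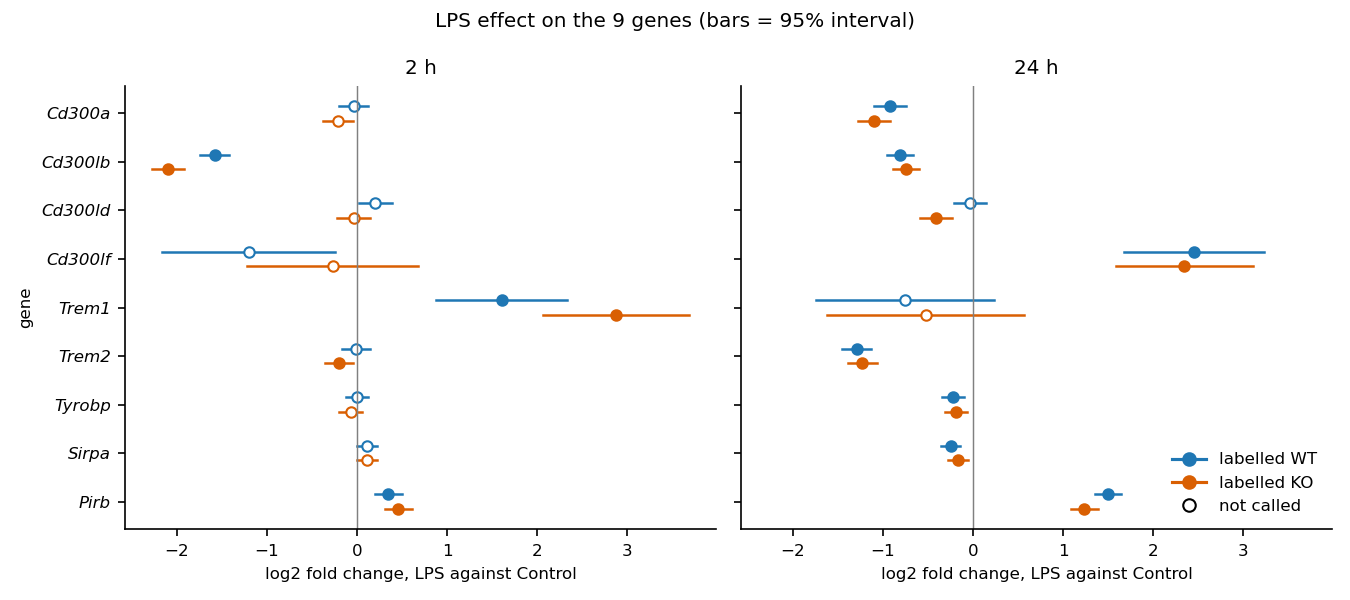
Log2 change of LPS against Control for the 9 genes at 2 h and at 24 h, in WT and KO, with 95% confidence intervals from the edgeR fit as lines and open points where no call was made. Trem1 is above 0 at 2 h, at 1.61 in WT and 2.88 in KO, and Pirb and Cd300lf are above 0 at 24 h, where Trem2 and Cd300a are below 0.

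Palmitate moved 1 member, Cd300a, which was higher than Control of the same time at both times in both genotypes. With palmitate its mean was 129 CPM at 2 h and 125 CPM at 24 h in WT, and 126 and 122 CPM in KO. The Control mean fell between these times, from 102 to 74.3 CPM in WT and from 97.3 to 73.7 CPM in KO. At 24 h Cd300a read 76, 72.4 and 74.4 CPM in WT Control against 124, 119 and 130 CPM with palmitate. In KO it read 68.2, 76.3 and 76.5 against 119, 121 and 126 CPM. All palmitate libraries were above all Control libraries. The rise was 1.68-fold in WT (log2 change 0.75, SE 0.081, edgeR adjusted p = 4.44e-09) and 1.65-fold in KO (log2 change 0.72, SE 0.08, edgeR adjusted p = 9.8e-09). It was the only member called, 1 of 9, at 24 h in each genotype, against 0.852% of all genes in WT and 0.877% in KO.

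At 2 h, Cd300a stood at 106, 103 and 95.2 CPM in WT Control and 134, 125 and 129 CPM with palmitate, and at 96.7, 98.2 and 97.1 against 131, 129 and 117 CPM in KO. The groups did not overlap. The rise was 1.28-fold in WT (log2 change 0.35, SE 0.078, edgeR adjusted p = 0.0205) and 1.29-fold in KO (log2 change 0.37, SE 0.077, edgeR adjusted p = 0.0198), 1 of 9 members in each, against 0.275% and 0.112% of all genes. The size was steady but the call was not. In WT it was lost at 0.37 without Control library 2, 0.31 without Control library 3 and 0.33, 0.38 and 0.36 without palmitate libraries 1, 2 and 3. In KO it was lost at 0.37, 0.38 and 0.37 without Control libraries 1, 2 and 3 and at 0.34 and 0.35 without palmitate libraries 1 and 2. The nearest other member at 2 h was Cd300ld in WT, at 0.29 (edgeR adjusted p = 0.257), which passed when only the compared libraries were fitted (adjusted p = 0.0391 by edgeR). The intervals of the other members at 24 h included 0 in WT, and in KO the nearest was Sirpa, at −0.16 (edgeR adjusted p = 0.26).

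**Figure D3:**
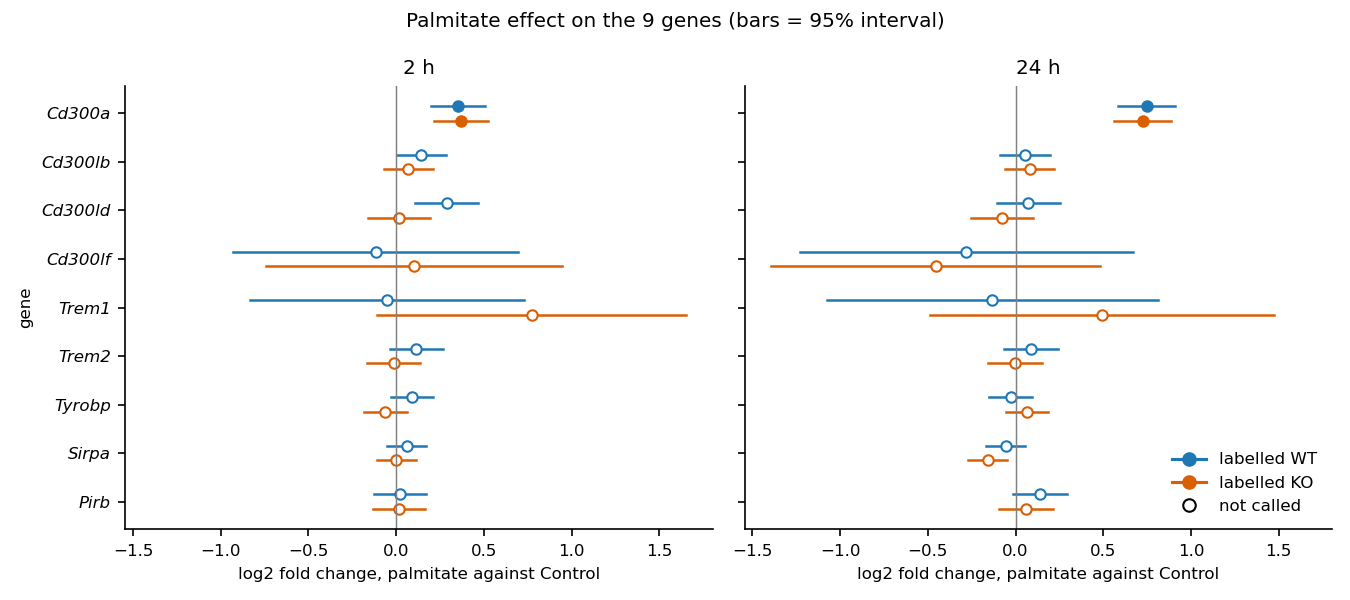
Log2 change of palmitate against Control for the 9 genes at 2 h and at 24 h, in WT and KO, with 95% confidence intervals from the edgeR fit as lines and open points where no call was made. Cd300a lies at 0.35 and 0.37 at 2 h and at 0.75 and 0.72 at 24 h.

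LPS and palmitate cells were also compared directly over both genotypes. At 2 h, 5 of 9 members were called, against 35% of all genes: Cd300lb was lower in LPS by 1.95 on the log2 scale, Cd300a by 0.49 and Trem2 by 0.16, and Trem1 was higher by 1.88 and Pirb by 0.38. At 24 h, 9 of 9 were called, against 51.8% of all genes. Cd300lf was higher in LPS than in palmitate cells by 2.77 and Pirb by 1.27 on the log2 scale, and Cd300a was lower by 1.75, Trem2 by 1.30 and Cd300lb by 0.84. Cd300a thus stood on opposite sides of Control under both agents at 24 h. The weakest calls at 24 h were Trem1 (−0.82, edgeR adjusted p = 0.0466) and Sirpa (−0.10, edgeR adjusted p = 0.0241). The Trem1 call was lost without any one of 9 of 12 libraries, every library but WT LPS library 2, KO LPS library 1 and KO palmitate library 1, at −0.85 to −0.66, and with all genes with a count (edgeR adjusted p = 0.0784). With only the compared libraries in the fit, 7 of 9 were called, without Trem1 (edgeR adjusted p = 0.0718) and Sirpa (edgeR adjusted p = 0.0656). The Sirpa call was lost at −0.09 without KO LPS library 1 or KO palmitate library 2 and −0.07 without WT LPS library 2, and the Trem2 call at 2 h at −0.13 without WT LPS library 3. Cd300lf (−1.01) and Sirpa (0.10) were called at 2 h only without KO LPS library 3. These values use the same LPS and palmitate libraries as the comparisons with Control.

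Time in culture without a stimulus moved 3 to 4 members at each step, tested as the mean change over both genotypes. At 2 h against 0 h, Cd300lb, Cd300lf and Trem1 were called, 3 of 9 against 16.7% of all genes. Trem1 had counts of 1, 1 and 2 in WT and 2, 0 and 4 in KO at 0 h, so its pooled ratio at 2 h was 18.9 in WT (95% interval 7.04 to 71.3) and 4.69 in KO (1.91 to 13.8). Cd300lf rose by 0.92 on the log2 scale (edgeR adjusted p = 0.0395) with pooled ratios of 2.15 in WT (95% interval 1.37 to 3.43) and 1.74 in KO (1.03 to 2.99), and its call was lost without any one of 8 of 12 libraries, at 0.75 to 0.95. The call held without WT 0 h library 2, KO 0 h library 3, WT 2 h library 3 or KO 2 h library 3. It was also lost with only the compared libraries in the fit (0.93, edgeR adjusted p = 0.0588). Cd300lb fell by 0.21 (edgeR adjusted p = 0.00097).

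At 24 h against 0 h, Cd300a, Cd300lb, Pirb and Trem1 were called, 4 of 9 against 16.5% of all genes. Cd300a fell by 0.44 on the log2 scale (edgeR adjusted p = 4.86e-08), Pirb by 0.34 (edgeR adjusted p = 2.61e-06) and Cd300lb by 0.20 (edgeR adjusted p = 0.00277). The Cd300a mean went from 114 to 74.3 CPM in WT and from 88.9 to 73.7 CPM in KO, so its fall was larger in WT. Trem1 had a pooled ratio of 10.3 in WT (95% interval 3.65 to 40.1) and of 3.76 in KO (1.48 to 11.3). At 24 h against 2 h, 3 of 9 members were called, against 18.3% of all genes: Cd300a fell by 0.42, Pirb fell by 0.27 and Cd300ld rose by 0.18 (edgeR adjusted p = 0.0356), the last not called at 0.15 to 0.18 without any one of WT 2 h libraries 1 and 3, KO 2 h library 1, WT 24 h libraries 1 and 3 and KO 24 h library 2. These comparisons share their Control libraries with each other.

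Between genotypes, 4 of 9 members were lower in libraries labelled KO in Control at 0 h. Cd300a read 109, 114 and 119 CPM in WT and 85.1, 99.7 and 81.8 CPM in KO Control at 0 h, a log2 difference of −0.36 (SE 0.079, edgeR adjusted p = 0.00134). Trem2 read 338, 370 and 341 against 282, 306 and 297 CPM (−0.25, SE 0.076, edgeR adjusted p = 0.0256), Tyrobp 380, 386 and 375 against 322, 314 and 350 CPM (−0.21, SE 0.06, edgeR adjusted p = 0.0156) and Sirpa 2400, 2320 and 2280 against 1990, 2180 and 1960 CPM (−0.19, SE 0.055, edgeR adjusted p = 0.0146). The groups did not overlap in any of the 4. They were 4 of 9 members against 12.5% of all genes tested. None was called in Control at 2 h. There the KO means were higher for Trem2 (342 against 311 CPM), Tyrobp (351 against 331 CPM) and Sirpa (2110 against 2030 CPM). Cd300a stood at 97.3 CPM in KO against 102 CPM in WT. In Control at 24 h none was called either. KO and WT stood at 73.7 and 74.3 CPM for Cd300a and at 312 and 324 CPM for Trem2. Tyrobp stood at 342 and 360 CPM and Sirpa at 2050 and 2040 CPM.

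The 3 smaller of the calls at 0 h were lost when single libraries were left out, while the differences kept their sign. Leaving out KO library 1 ended the calls of Trem2 (−0.20), Tyrobp (−0.18) and Sirpa (−0.17). Leaving out KO library 2 ended that of Tyrobp (−0.16), and leaving out KO library 3 those of Trem2 (−0.24) and Sirpa (−0.15). Of the WT libraries, leaving out library 1 ended the call of Sirpa (−0.17), and leaving out library 2 those of Trem2 (−0.20) and Tyrobp (−0.20). At 0 h the macrophage markers summed to 10900 to 14600 CPM in KO against 15200 to 15600 CPM in WT, and the 7 of them other than Lyz2, which holds the Cre insertion, to 5410 to 5780 against 5410 to 5640 CPM, which overlap. The granulocyte precursor list summed to 84.7 to 90.7 against 50.3 to 61 CPM and the fibroblast list to 43.3 to 70 against 0.517 to 0.883 CPM. The part of these 2 lists in the result was not tested.

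In the treated groups, 1 genotype difference was called. Cd300lb at 2 h of LPS read 39.3, 50.3 and 44.3 CPM in WT and 30.3, 36 and 27.6 CPM in KO, without overlap, a log2 difference of −0.52 (SE 0.1, edgeR adjusted p = 0.00278), 1 of 9 members against 0.465% of all genes. Leaving out KO library 3 (−0.42) or WT library 2 (−0.43) ended the call, as did a fit with only the compared libraries (−0.52, edgeR adjusted p = 0.306). The difference in the LPS effect itself was −0.52 (SE 0.122, edgeR adjusted p = 0.257), called only without KO LPS library 2 (−0.65, edgeR adjusted p = 0.042). In these groups the granulocyte precursor list summed to 127 to 217 CPM in KO against 43.9 to 69 CPM in WT. The fibroblast list summed to 0.702, 135 and 2.73 CPM in KO against 0.333 to 0.647 CPM in WT, and the macrophage list without Lyz2 to 4810 to 5080 against 4710 to 4780 CPM. Their part in the result was not tested. Without KO library 1 the genotype difference was −0.50 (edgeR adjusted p = 0.0127).

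No member was called by edgeR or by DESeq2 in the 5 other genotype comparisons at 2 and 24 h. For Control at 2 h, where 0.49% of all genes were called, 1 of 9 members had an unadjusted p under 0.05: Trem1, at 4.83, 3.97 and 2.81 CPM in WT against 2.17, 1.25 and 1.69 CPM in KO (log2 difference −1.16, edgeR adjusted p = 0.281). For Control at 24 h (0.12% of all genes), palmitate at 2 h (0.146%) and palmitate at 24 h (0.0688%), 0 of 9 did. For LPS at 24 h (0.146%), 2 of 9 did, Cd300ld and Pirb. The differences between genotypes in the treatment effects gave no called member either by edgeR or by DESeq2, against 0% of all genes for LPS at 2 h, 0.0086% for LPS at 24 h, 0% for palmitate at 2 h and 0% for palmitate at 24 h. Unadjusted p under 0.05 were found for 2, 2, 1 and 0 of 9 members in these 4 comparisons, and for 810, 625, 486 and 411 of all genes. DESeq2 called 1, 2, 0 and 0 of all genes.

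**Figure D4:**
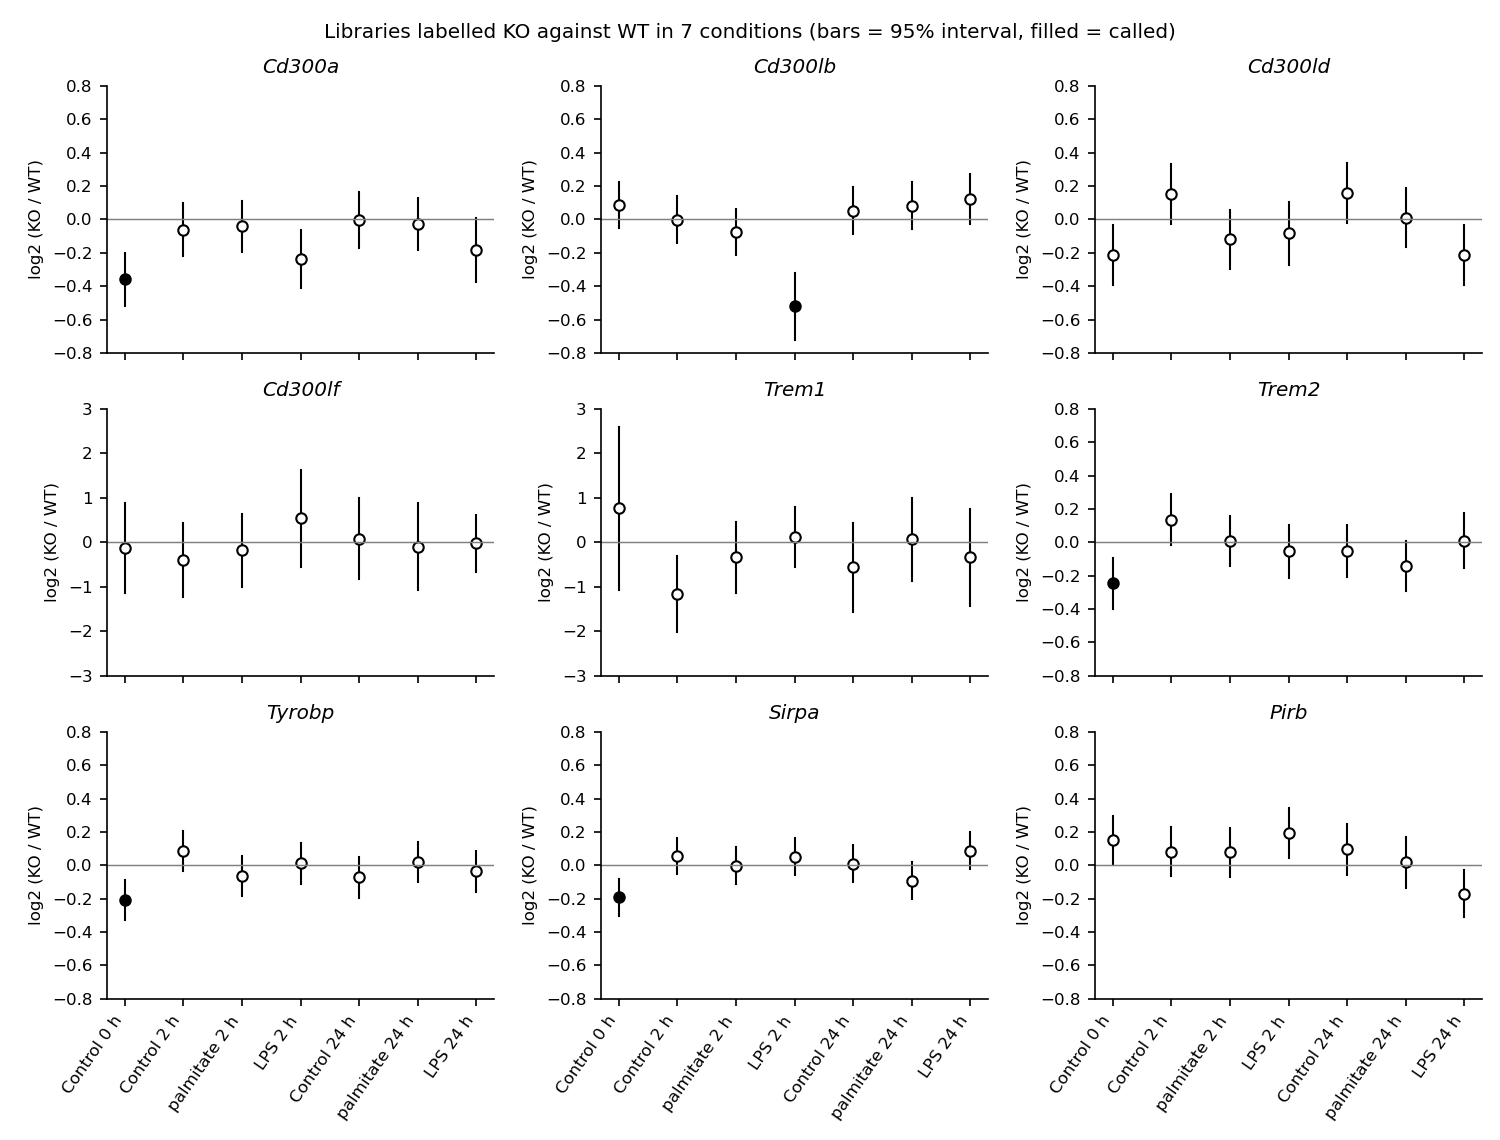
Log2 difference KO minus WT for the 9 genes in each of the 7 conditions, with 95% confidence intervals from the edgeR fit. The vertical scale runs to ±3 for Trem1 and Cd300lf and to ±0.8 for the other genes, and the called differences are Cd300a, Trem2, Tyrobp and Sirpa in Control at 0 h and Cd300lb after LPS for 2 h.

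Partners, ligands and relatives of these receptors were counted against the share of all genes called after LPS, 23.1% in WT and 23.9% in KO at 2 h and 39.5% and 40.9% at 24 h. Of 13 genes of activating signalling, 5 rose and 0 fell at 2 h in WT and 8 rose and 2 fell at 24 h, with a median log2 change at 24 h of 0.37 against −0.01 over all genes tested. In KO 4 rose and 0 fell at 2 h, near the share of all genes, and 8 rose and 2 fell at 24 h. Fcer1g, the adaptor that shares its signalling motif with Tyrobp, read 413 ± 25 CPM in WT Control and 939 ± 0.482 CPM in WT LPS cells at 24 h (SD, n = 3) and rose by 1.24 on the log2 scale (SE 0.063, edgeR adjusted p = 1.48e-22), while Tyrobp fell. Syk rose by 0.69 in WT and 0.91 in KO at 2 h and by 0.81 and 0.94 at 24 h. The adaptor gene Lcp2 rose by 2.33 and 2.60 at 2 h. At 24 h the guanine nucleotide exchange factor gene Vav3 fell by 0.99 and 1.13, and the adaptor gene Lat2 by 0.27 and 0.25.

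Of 11 genes in a list of inhibitory phosphatases and of adaptors, 2 rose and 2 fell at 2 h in WT and 2 rose and 0 fell in KO. At 24 h 5 rose and 2 fell in WT and 5 rose and 1 fell in KO. The KO count at 2 h was below the 23.9% of all genes. Ptpn6, which encodes SHP-1, rose by 0.76 in WT and 0.81 in KO on the log2 scale at 24 h. Inppl1, an inositol phosphatase gene, fell by 0.58 and 0.41, and Inpp5d, another, fell by 0.16 in WT. The adaptor gene Fyb rose by 0.36 and 0.30 at 2 h and by 0.55 and 0.56 at 24 h, and Ptpn11, which encodes SHP-2, rose by 0.28 in both genotypes at 2 h. At 2 h in WT the adaptor genes Pag1 and Dok3 fell by 0.49 and 0.43, and at 24 h Dok3 rose by 0.75 in WT and Csk, an inhibitory kinase gene, rose by 0.51 in KO. Of 10 tested ligands and shedding enzymes, 3 rose and 0 fell at 2 h in WT and 4 rose and 1 fell in KO, and at 24 h 7 rose and 2 fell in WT (median 0.59 against −0.01) and 6 rose and 2 fell in KO. The WT count at 2 h was near the 23.1% of all genes. H2-K1 and B2m, which encode parts of the MHC class I ligand of Pirb, rose by 2.04 and 1.58 in WT at 24 h, and H2-D1, another class I gene, rose by 0.97 in WT and 0.96 in KO. Apoe, a ligand of TREM2, fell by 0.75 in WT and 0.67 in KO, and Adam10, a protease that sheds TREM2, by 0.65 and 0.72. At 2 h Cd47, the ligand of SIRPA, rose by 0.27 in WT and 0.34 in KO and the protease gene Adam17 by 0.32 and 0.42, H2-K1 rose by 0.25 in WT, and in KO Thbs1, which encodes a CD47 ligand, rose by 0.67 and Adam10 fell by 0.18.

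Among the relatives in the same gene families, 15 of 32 passed the filter. Of these, 3 rose and 1 fell at 2 h in WT and 4 rose and 1 fell in KO, and at 24 h 9 rose and 2 fell in WT and 7 rose and 1 fell in KO. The WT count at 2 h was near the 23.1% of all genes. Pilra, an inhibitory paired receptor, rose by 1.15 and 1.33 on the log2 scale at 2 h and by 3.18 and 2.89 at 24 h, from 25.4 ± 2.54 to 224 ± 9.73 CPM in WT (SD, n = 3). Its activating partner Pilrb1 rose by 3.98 and 4.18 and Pilrb2 by 3.53 and 3.18 at 24 h. Clec5a, a DAP12-linked lectin gene, rose by 1.66 and 1.77 at 2 h, when Treml2 rose by 1.13 in WT and Pilrb1 by 1.80 in KO, and Cd300ld3 fell by 0.64 in WT at 24 h. Cd300e, an activating CD300 gene picked after its values were seen, read 1.29 ± 1.12 CPM in WT Control and 26.3 ± 2.36 CPM in WT LPS cells at 24 h, and 0.678 ± 0.138 and 22.4 ± 2.69 CPM in KO. Cd300lg, at a mean of only 0.894 CPM, had at most 2 counts in any WT library after 24 h of LPS. WT Control libraries at 24 h had 7 to 17 counts, and no fold is given. It had 0 counts in every WT library after 2 h of LPS, which is not set against Control at 2 h here.

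Palmitate and genotype moved few of these genes. With palmitate at 24 h, 2 of 13 activating partners rose in each genotype, against 0.852% of all genes called in WT and 0.877% in KO. Syk rose by 0.24 and 0.25 and Vav3 by 0.48 and 0.41 on the log2 scale. No gene of the other 3 lists was called by edgeR at 24 h. At 2 h, 1 of 11 phosphatases and adaptors, Pag1 (−0.52), and 1 of 10 ligands, Thbs1 (−0.76), fell with palmitate in WT, against 0.275% of all genes called. In Control at 0 h, where 12.5% of all genes were called, 3 of 13 activating partners were higher and 2 lower in KO. Among them were Fgr at 0.50, Vav3 at 0.26, Lat2 at −0.31 and Lyn at −0.21. The other lists were near the share of all genes. In them 1 of 11 phosphatases and adaptors was called, Inppl1 at 0.46, 1 of 10 ligands, Adam10 at −0.27, and 2 of 15 relatives, among them Pilra at −0.54. At 2 h in Control, Csk (−0.29) and Thbs1 (−0.63) were lower in KO.

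The Pearson correlation of log2 CPM over the 14 group means was 0.918 between Cd300a and Trem2 and 0.82 between Trem2 and Tyrobp, and −0.903 between Trem2 and Pirb and −0.897 between Trem2 and Cd300lf (n = 14, points that share stimuli and genotypes). Among tested genes averaging 10 CPM or more, the 3 most like Cd300a were Cd36, a fatty acid receptor gene (r = 0.954, and 0.77 without the LPS groups), Acot2, an acyl-CoA thioesterase gene (0.945), and Naa50 (0.944). For Trem1 they were Ezr (0.964), Dennd4a (0.953) and Abca1, a cholesterol exporter gene (0.951). For Pirb they were Acsl5 (0.985) and the interferon-induced genes Ifi44 (0.983) and Oasl2 (0.982), and for Cd300lf Fgd2 (0.96), Nosip (0.947) and Arrb2 (0.946). Cd300lb was most like Flcn (0.985), Zfp36l2 (0.977) and Mnt (0.963), which stood at −0.14, 0.564 and 0.257 without the LPS groups. Trem2 was most like Cep170b (0.989), Itga6 (0.989) and Lpin1 (0.988), which stood at 0.485, 0.451 and 0.767 without the LPS groups. Tyrobp was most like Prkacb (0.955), Strn (0.912) and Slc25a4 (0.903), Sirpa like Csrp1 (0.938), Ipo5 (0.93) and Fem1b (0.914), and Cd300ld like Suclg2 (0.812), Gdi2 (0.809) and Ldhb (0.807). These likenesses are descriptions over 14 points that share their libraries. Correlations between members were not taken without the LPS groups.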

How the data were processed

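RNA was made by the authors into stranded, ribodepleted total RNA libraries (SMARTer Pico v2) and sequenced in paired ends. The submitters' processing notes name fastp 0.19.11, STAR 2.7.3a and the builds mm10 and mm9, and the study aligned to mm10. The deposited values are raw counts per gene, made by the authors and not normalised. The annotation release and the use of strand in counting are not given in the sources used here. The study tested genotypes with DESeq2.

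The column headers carry the group alone. Library numbers therefore follow column order and serve as names. Totals ran from 2848793 to 7743442 counts, and no pair of replicates matched within sampling noise (chi-square per degree of freedom 1.93 to 9.32). Of 37310 identifiers, 32620 had a symbol. Counts were tested with edgeR 4.0.16 (quasi-likelihood, TMM, filterByExpr, Benjamini-Hochberg over 11624 genes, called under 0.05) in R 4.3.3, in 1 model over the 42 libraries with 25 comparisons. Standard errors were taken from the log2 change and its F statistic. Levels of the members, Irf5 and Lyz2 are CPM after TMM scaling, divided by the merged exon length in kilobases where members are compared. Marker sums and the levels of single markers and of list genes are CPM on the library total, without TMM scaling. Low counts were also compared as pooled ratios with exact 95% intervals. The edgeR fit was tested on counts simulated from its own means and spread, with known changes in 1 comparison, LPS against Control at 2 h in WT. The other steps were not tested in this way.

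Members and gene lists were chosen with earlier results of these data known. The named genes are all 9 members, and per list up to 3 genes a direction with the smallest adjusted p (2 for genotype) and no overlap between groups. For likeness they are the 3 genes best correlated with each member. Cd300e is named outside this rule. One gene that the rule names is not reported here. Symbols without a match in the table or not passing the filter were not used. Alternatives were DESeq2 1.42.0, RLE scaling, all genes with a count, only the libraries compared, and leaving out each library. Protein sequences were not used here.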

Additional observations from a re-analysis of the deposited data

Results flagged for a closer look

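The effect of LPS differed between 2 and 24 h in every one of the 9 members, by the edgeR test of the difference itself over both genotypes (effect at 24 h minus effect at 2 h, log2 scale, against 46.3% of all genes). The difference was 3.134 for Cd300lf (adjusted p = 2.65e-08), 1.064 for Cd300lb (2.92e-16) and 0.964 for Pirb (6.29e-16). It was −2.882 for Trem1 (adjusted p = 7.25e-07), −1.153 for Trem2 (9.3e-18), −0.884 for Cd300a (2.02e-12), −0.322 for Sirpa (2.8e-06), −0.305 for Cd300ld (0.00466) and −0.17 for Tyrobp (0.0189). The Tyrobp call was lost with all genes with a count in the fit (−0.16, adjusted p = 0.0821 by edgeR), which left 8 of 9, and without any one of 6 libraries. Against Control, Cd300lb was lower at both times and Trem1 was called higher at 2 h and was not called at 24 h.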

How the results depend on the processing

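Of 64 member calls, 49 held in every alternative. Over 946 alternative values of called results, 879 kept the call, 67 lost it and 0 changed sign, and over 1939 values of results not called, 9 became called and 144 had the other sign. With only the compared libraries in the fit, the members called were 0 for KO against WT after LPS for 2 h (1 before) and 2 for palmitate at 2 h in WT (1 before). Leaving out each library in turn gave 1 to 4 for KO against WT in Control at 0 h, 0 to 1 for KO against WT after LPS for 2 h, 0 to 1 for the genotype difference in the LPS effect at 2 h, and 0 to 1 for palmitate at 2 h in WT and in KO. The cause was not tested. In the values with the fewest counts, Trem1 and Cd300lf, 3 counts stood for 0.387 to 1.05 CPM, which limits what can be seen. No paired analysis was possible because the columns of the table carry no replicate numbers.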
